A study of Mus musculus with 6 samples.

Results

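The genes described here encode enzymes that write, erase or read chemical marks on chromatin: DNA methyltransferases (Dnmt), Tet dioxygenases, lysine methyltransferases (Ezh, Kmt2, Setd), lysine demethylases (Kdm), acetyltransferases (Kat), deacetylases (Hdac, Sirt) and bromodomain proteins (Brd). They were chosen by gene symbol from a table of 23034 genes, and 74 of the 77 matching symbols had at least 15 counts summed over the 6 libraries. The sum of counts is the measured value used in the choice, and it takes no account of group. Just below that limit were Ezhip with 0 counts and Brd8dc and Kdm4d with 7 counts each. Just above it were Dnmt3c with 16 counts and Tet1 with 48.

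DNA methyltransferases add methyl groups to cytosine, mostly at CpG dinucleotides, and Tet enzymes oxidise that mark as a step toward its removal. On histone tails, methylation can mark active or silent chromatin depending on the residue, while acetylation generally accompanies open, transcribed chromatin and is bound by bromodomains. In macrophages these enzymes are known to take part in the switch between the IL-4-driven state and the inflammatory state. Kdm6b (Jmjd3) in mouse IL-4 responses and Hdac3 in inflammatory transcription are examples.

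RNA sequencing was done on mouse bone marrow-derived macrophages of wild-type genotype, with 3 libraries given SA@BATMAN5 for 24 hours and 3 given PBS (controls). Cells of both groups had been grown from marrow with M-CSF at 10 ng/ml and then held for 24 hours in IL-4 at 20 ng/ml, which gives M2 macrophages, before treatment. The series title describes tuftsin clusters aimed at Fc gamma receptors, and the labels say neither what SA@BATMAN5 is made of nor whether the replicates are separate animals, so p-values measure only the spread between these libraries. The comparison asks which transcripts differed after SA@BATMAN5.

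Libraries held 29739263 to 37212125 counts with SA@BATMAN5 and 38740103 to 47018154 in controls, with every SA@BATMAN5 library shallower than every control. Levels are counts per 1000000 library counts (CPM), with library totals scaled by TMM, and FPKM, the authors' length-scaled value, is used wherever genes are compared with each other. Log2 fold changes are SA@BATMAN5 over control, given ± SE, with n = 3 libraries per group and an edgeR test adjusted over all 13474 genes tested. A count of 0 allows up to 3 counts, which was 0.0828 to 0.103 CPM per SA@BATMAN5 library and 0.0619 to 0.0752 CPM per control library, for counting error only. The macrophage markers Adgre1, Csf1r, Cd68, Itgam, Lyz2, Fcgr1, Mertk and Cd14 were present in every library, summing to 22840.1 to 23018 CPM with SA@BATMAN5 and 16308 to 16497 CPM in controls. Lyz2 alone had a mean of 13841.5 CPM with SA@BATMAN5 and 9766.9 CPM in controls. Of the 8 markers 6 were called higher and 2, Cd68 and Itgam, were called lower. Of all tested genes 58.2% were called.

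Markers of other cells also moved between the groups. For comparison, 29.5% of all tested genes were called higher and 28.7% lower. Of 8 stromal markers 5 of 6 tested were higher with SA@BATMAN5, and the list summed to 1077 to 1240.2 CPM with SA@BATMAN5 and 752 to 936 CPM in controls, with Lum at 0. Of 8 neutrophil markers 3 of 3 tested were higher, summing to 60.00 to 70.8 CPM with SA@BATMAN5 and 7.25 to 7.77 CPM in controls, almost all S100a8, and Ly6g, Mpo, Retnlg and Ctsg were at 0. Lymphocyte markers (2 of 3 tested higher) summed to 6.96 to 10.4 CPM with SA@BATMAN5 and 3.47 to 5.40 CPM in controls, with Cd3e and Cd3g at 0. Dendritic cell markers (1 of 4 tested higher, Ccr7) summed to 6.63 to 7.57 CPM with SA@BATMAN5 and 4.74 to 5.12 CPM in controls, with Flt3 and Siglech at 0. Of these markers Dcn, Camp, Cd79a and Ccr7 passed the filter on low counts through the SA@BATMAN5 group alone, so their calls carry no weight. The part of such cells in the results below was not tested, and in bulk RNA fewer cells of a type and less RNA per cell cannot be told apart.

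Chromatin genes changed often but by little, and the large changes were in DNA methylation enzymes. Of the 72 genes that passed the filter on low counts, 27 were higher with SA@BATMAN5, 18 were lower and 27 did not pass at an adjusted p under 0.05, so 62.5% were called. Among all tested genes 58.2% were called, 29.5% higher and 28.7% lower, so the share of chromatin genes called was near the background. Changes of at least 2-fold were found for 4 of the 72 genes (5.56%), namely Dnmt3l upward and Dnmt3a, Tet3 and Dnmt3b downward. Dnmt3l passed the filter through the SA@BATMAN5 group alone, so it was bound to differ once tested and its call carries no weight. Of all tested genes 16.5% were called and changed that much (9.17% higher and 7.35% lower). The libraries of the groups did not overlap for 46 of the 72 genes (63.9%) and for 64.1% of all tested genes. The median absolute log2 fold change was 0.25 for chromatin genes and 0.31 for all tested genes, and 64 of the 72 lay within 1.5-fold of the control level. With upper-quartile scaling 22 chromatin genes were higher and 22 lower, and with library totals only 24 and 22, with the median log2 fold change of all genes at -0.0851 and -0.0786 under these scalings, against -0.0041 under TMM.

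**Figure D1:**
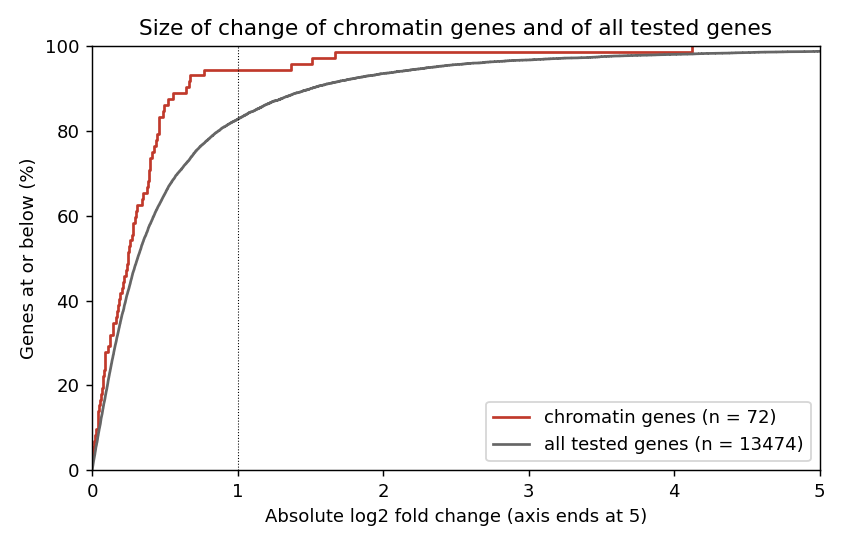
Cumulative share of genes (vertical axis, percent) at or below a given absolute log2 fold change (horizontal axis, ending at 5), for the 72 tested chromatin genes (red) and all 13474 tested genes (grey); the dotted line marks a 2-fold change. The red line runs above the grey line around the 2-fold mark, where 4 chromatin genes lie to the right.

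The promoters of the genes with the largest falls (Dnmt3a, Tet3) and rises (Dnmt3l, Hdac7) among those with an entry in the RefSeq promoter table and a mean of at least 1 CPM are shown because DNA methylation acts on CpG dinucleotides, which are set in capitals. Each runs from 250 bases before to 50 bases after the first listed transcription start, in GRCm38.p6, a different build from the authors' GRCm39. Dnmt3a and Dnmt3l have 3 listed starts each, Hdac7 has 4 and Tet3 has 1, and the counts do not show which start was used.
Dnmt3a: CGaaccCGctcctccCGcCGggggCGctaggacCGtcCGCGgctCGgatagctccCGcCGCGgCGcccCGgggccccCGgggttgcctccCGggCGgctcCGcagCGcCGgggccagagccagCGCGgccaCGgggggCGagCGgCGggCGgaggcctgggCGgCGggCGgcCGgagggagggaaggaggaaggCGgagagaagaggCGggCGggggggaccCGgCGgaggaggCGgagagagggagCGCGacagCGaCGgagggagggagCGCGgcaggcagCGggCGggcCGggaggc
Tet3: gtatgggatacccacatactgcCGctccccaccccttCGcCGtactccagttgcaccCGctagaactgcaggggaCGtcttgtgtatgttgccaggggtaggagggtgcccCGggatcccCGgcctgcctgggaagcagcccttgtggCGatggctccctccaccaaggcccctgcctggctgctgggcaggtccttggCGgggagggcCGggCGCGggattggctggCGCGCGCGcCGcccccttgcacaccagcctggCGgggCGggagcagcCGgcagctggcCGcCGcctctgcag
Dnmt3l: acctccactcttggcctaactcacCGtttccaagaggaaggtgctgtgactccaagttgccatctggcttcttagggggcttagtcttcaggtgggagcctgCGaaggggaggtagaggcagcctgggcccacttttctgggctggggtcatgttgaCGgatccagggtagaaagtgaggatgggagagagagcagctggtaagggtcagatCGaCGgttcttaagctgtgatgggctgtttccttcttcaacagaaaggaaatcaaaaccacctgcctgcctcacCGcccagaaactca
Hdac7: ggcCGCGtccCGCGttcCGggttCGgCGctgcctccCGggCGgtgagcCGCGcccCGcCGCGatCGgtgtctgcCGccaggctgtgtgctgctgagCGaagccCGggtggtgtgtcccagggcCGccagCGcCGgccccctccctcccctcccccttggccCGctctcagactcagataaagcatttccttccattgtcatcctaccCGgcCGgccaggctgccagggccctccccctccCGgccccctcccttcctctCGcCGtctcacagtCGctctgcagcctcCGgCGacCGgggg
The Dnmt3a window is chr12:3806730-3807029 on the plus strand and holds 46 CpGs, and the Tet3 window is chr6:83441629-83441928 on the minus strand and holds 22. The Dnmt3l window, chr10:78042037-78042336 on the plus strand, holds 6 CpGs, and the Hdac7 window, chr15:97831446-97831745 on the minus strand, holds 31. Promoters of 59 chromatin genes were matched by symbol, and their median was 22 CpGs per window (range 0 to 65), against a median of 7 over 27025 genes. At least 15 CpGs were found in 46 of the 59 (78.0%) and in 35.2% of all windows. The chromatin genes had to have counts in these libraries, whereas all windows were taken whether or not the gene had counts. The CpG and motif shares of the chromatin genes and of all windows are therefore not a like comparison. Searched on both strands, the GC box GGGCGG matched 37 of 59 windows (62.7%) and 35.9% of all windows, with 6 matches in Dnmt3a, 2 in Tet3 and 1 each in Dnmt3l and Hdac7. The interferon response element core GAAANNGAA, the NF-kappaB consensus, the AP-1 site TGANTCA and the E-box CACGTG matched none of the 4 printed windows. They matched 8.57%, 4.35%, 7.93% and 7.24% of all windows and 2, 2, 3 and 4 of the 59 windows of chromatin genes.

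Dnmt3a, a de novo DNA methyltransferase, had the largest fall among the chromatin genes. It stood at 123, 134 and 125 CPM in SA@BATMAN5 libraries, against 406, 403 and 401 CPM in control libraries. The groups were far apart, and the libraries within each group were close together. The level was thus 0.315 of control (log2 fold change -1.67 ± 0.04, adjusted p = 4.48e-14), and by FPKM the gene ranked 19 among the 74 chromatin genes with SA@BATMAN5 (11.6 ± 0.502 FPKM, SD) and 2 in controls (41.6 ± 0.405 FPKM). Dnmt1, which copies methylation onto newly made strands, was at 108, 109 and 107 CPM in SA@BATMAN5 libraries, against 98.97, 102 and 106 CPM in control libraries, and did not pass (log2 fold change 0.08 ± 0.04, adjusted p = 0.101), although the groups did not overlap. Dnmt3a made up 39.5, 40.3 and 40.6% of the family's summed FPKM with SA@BATMAN5, against 72.3, 71.4 and 71.0% in controls, while Dnmt1 took 55.5 to 57.2% with SA@BATMAN5 and 27.0 to 28.6% in controls.

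The low members of the family moved in opposite directions. Dnmt3l, a partner of the de novo enzymes with no catalytic activity of its own, had 81, 72 and 45 counts in SA@BATMAN5 libraries, against 8, 3 and 4 counts in control libraries. That is 1.99 ± 0.658 CPM with SA@BATMAN5 and 0.109 ± 0.0532 CPM in controls (SD, log2 fold change 4.13 ± 0.50, adjusted p = 1.94e-06). All SA@BATMAN5 libraries were above all controls, with SA@BATMAN5 replicate 3 the nearest to them. Dnmt3l is the single chromatin gene that passed the filter on low counts through the SA@BATMAN5 group alone, so it was bound to differ once tested. Dnmt3b, the other de novo enzyme, had 15, 22 and 15 counts in SA@BATMAN5 libraries, against 80, 52 and 50 counts in control libraries (log2 fold change -1.36 ± 0.36, adjusted p = 0.00429). Dnmt3c, known in mouse for methylating transposons in male germ cells, had 0, 10 and 6 counts with SA@BATMAN5 and 0 in each control library and was not tested. Dnmt3b and Dnmt3c are close in sequence, and how the counting tool shared out their reads is not given in the sources used here.

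Among the Tet dioxygenases, Tet3 fell and Tet2 rose slightly. Tet3 stood at 58.3, 62.8 and 16.95 CPM in SA@BATMAN5 libraries, against 139, 127 and 125 CPM in control libraries. Every SA@BATMAN5 library was below every control, and SA@BATMAN5 replicate 3 was far below the other two (log2 fold change -1.51 ± 0.29, adjusted p = 0.000481). The deposited FPKM of Tet3 was 4.36, 4.87 and 2.29 FPKM in SA@BATMAN5 libraries, against 11.8, 10.3 and 9.93 FPKM in control libraries, so in that library FPKM per CPM was 0.135, against 0.0748 to 0.0848 in the other 5 libraries. Without SA@BATMAN5 replicate 3 the log2 fold change of Tet3 was -1.11 (adjusted p = 7.51e-09), and with limma on log2(FPKM + 1) it was -1.31 (adjusted p = 0.000400). The authors' deposited table gives Tet3 a log2 fold change of -1.50 and a p-value of 0.00598.

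Tet2 stood at 44.3, 45.2 and 44.3 CPM in SA@BATMAN5 libraries, against 40.04, 40.3 and 38.9 CPM in control libraries (log2 fold change 0.17 ± 0.05, adjusted p = 0.00712). The rise was narrow but every SA@BATMAN5 library was above every control, and the call was lost with library totals only (adjusted p = 0.105), with upper-quartile scaling (0.130) and on FPKM (0.434). Tet1 was not tested, with 13, 0 and 8 counts with SA@BATMAN5 and 13, 5 and 9 counts in controls. Summed over the family, Tet transcripts were at 7.88 ± 1.39 FPKM with SA@BATMAN5 and 14.5 ± 1.15 FPKM in controls, and Dnmt transcripts at 28.8 ± 1.22 FPKM with SA@BATMAN5 and 58.1 ± 0.435 FPKM in controls (SD, n = 3 each, as for all family sums).

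**Figure D2:**
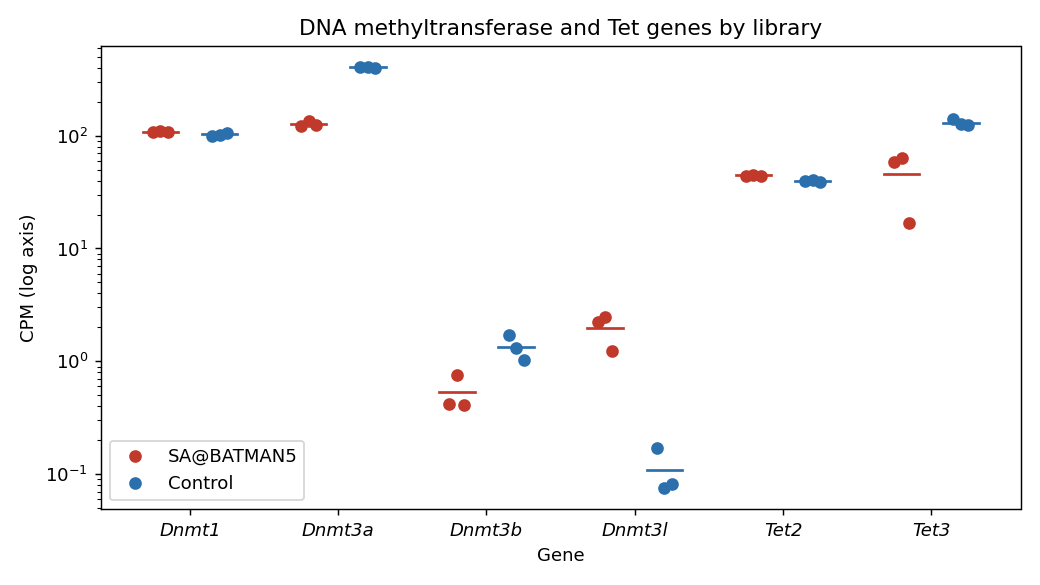
CPM on a log axis of 6 DNA methyltransferase and Tet genes, with 1 point per library (SA@BATMAN5 red, left; control blue, right) and the group mean as a line. Dnmt3a lies near 127 CPM with SA@BATMAN5 and 403 CPM in controls, Dnmt3l is the gene with higher SA@BATMAN5 points at a low level, and for Tet3 the SA@BATMAN5 point at 16.95 CPM is apart from the other two.

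Genes that work with DNA methylation were followed as a list of 15, of which 5 rose, 8 fell and 2 did not pass. Thus 86.7% were called, beside 58.2% of all tested genes. Gadd45a, linked to active demethylation, stood at 26.01, 27.1 and 26.4 CPM in SA@BATMAN5 libraries, against 45.04, 41.1 and 39.97 CPM in control libraries (log2 fold change -0.67 ± 0.06, adjusted p = 2.3e-07). Its paralog Gadd45b rose by 0.44 ± 0.06 log2 units (adjusted p = 1.35e-05). Uhrf1, which brings Dnmt1 to replicated DNA, fell by 0.97 ± 0.13 log2 units (adjusted p = 1.63e-05). Gadd45b and Uhrf1 were picked out after their values were seen. The median log2 fold change of the list was -0.28, against -0.0041 over all tested genes.

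Among the genes for enzymes of histone methylation, 5 of 8 Setd genes rose, 1 fell and 2 did not pass. Of all tested genes 29.5% were called higher and 28.7% lower, the background for each family count given here and below. With library totals only 4 Setd genes were higher and 2 lower, and with upper-quartile scaling 3 were higher and 2 lower. The median of their log2 fold changes was 0.22. Setd1b, a methyltransferase of the COMPASS complexes at active promoters, had the largest rise among them, at 26.3, 25.9 and 27.1 CPM in SA@BATMAN5 libraries, against 18.04, 16.9 and 15.7 CPM in control libraries (log2 fold change 0.64 ± 0.07, adjusted p = 1.79e-06). Its paralog Setd1a was at 47.2, 43.5 and 44.2 CPM with SA@BATMAN5 and 40.5, 47.5 and 42.7 CPM in controls and did not pass (adjusted p = 0.536), with overlapping groups. Setd5 (log2 fold change 0.38 ± 0.04) rose too, as did Setd3 (log2 fold change 0.25 ± 0.04), which methylates actin, and Setd2 (log2 fold change 0.19 ± 0.05), which marks transcribed gene bodies. Setd6, a methyltransferase of the NF-kappaB subunit RelA, was called higher (log2 fold change 0.30 ± 0.12, adjusted p = 0.0388), and dropping any library except SA@BATMAN5 replicate 3 ended the call (adjusted p 0.0515 to 0.192), as did the replicate number as a block (0.0529), library totals only (0.110), upper-quartile scaling (0.119) and FPKM (0.111). Setd2 was not called with upper-quartile scaling (adjusted p = 0.0625). Setd4 fell, at 4.72, 3.58 and 4.33 CPM in SA@BATMAN5 libraries, against 5.51, 5.59 and 6.30 CPM in control libraries (log2 fold change -0.46 ± 0.14, adjusted p = 0.0134), and was not called without control replicate 3 (0.0572). Setd7 did not pass (adjusted p = 0.327), and it was called lower with library totals only (0.0216) and upper-quartile scaling (0.0178).

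Among the 5 Kmt2 (MLL) genes, most of which encode enzymes that methylate histone H3 at promoters and enhancers, Kmt2d alone was called. It stood at 81.5, 84.2 and 79.98 CPM in SA@BATMAN5 libraries, against 62.5, 61.8 and 60.2 CPM in control libraries (log2 fold change 0.41 ± 0.04, adjusted p = 6.55e-07), and the groups did not overlap. Kmt2a stood at 56.7, 56.4 and 56.4 CPM in SA@BATMAN5 libraries, against 68.3, 57.2 and 59.3 CPM in control libraries (log2 fold change -0.12 ± 0.06, adjusted p = 0.0884), was not called, and was called lower without control replicate 2 (adjusted p = 0.0277), with library totals only (0.00795), with upper-quartile scaling (0.00696) and after thinning to the shallowest library (0.0377). Kmt2b, Kmt2c and Kmt2e had log2 fold changes of -0.01, -0.00 and 0.08, with overlapping groups, and Kmt2e was called higher without control replicate 1 (adjusted p = 0.0145). The summed FPKM of the family was 21.8 ± 0.292 with SA@BATMAN5 and 21.8 ± 1.17 in controls. Of 12 partner subunits of the COMPASS and MLL complexes 3 rose, 1 fell and 8 did not pass. Thus 33.3% were called, beside 58.2% of all tested genes. Ncoa6, a coactivator in the Kmt2c and Kmt2d complexes, rose by 0.36 ± 0.04 log2 units, and Rbbp5, a core subunit, fell by 0.40 ± 0.05 log2 units.

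The Polycomb methyltransferase genes Ezh1 and Ezh2 went in opposite directions. Ezh2, the form known from dividing cells, stood at 9.48, 11.5 and 11.7 CPM in SA@BATMAN5 libraries, against 12.8, 14.1 and 15.5 CPM in control libraries (log2 fold change -0.38 ± 0.11, adjusted p = 0.00666). Ezh1, the form known from resting cells, stood at 54.3, 51.8 and 47.6 CPM in SA@BATMAN5 libraries, against 43.5, 43.1 and 41.9 CPM in control libraries (log2 fold change 0.26 ± 0.05, adjusted p = 0.000914), and was not called on FPKM (adjusted p = 0.118). For both genes the groups did not overlap. FPKM per CPM of Ezh1 was 0.194 to 0.208 with SA@BATMAN5 and 0.213 to 0.219 in controls. For Ezh2 it was 0.291 to 0.311 with SA@BATMAN5 and 0.321 to 0.323 in controls. Sums in FPKM therefore sit lower with SA@BATMAN5, relative to controls, than sums in CPM would. In FPKM the sum of both genes was 13.5 ± 0.809 with SA@BATMAN5 and 13.8 ± 0.219 in controls. Ezh1 made up 78.5, 75.6 and 73.1% of that sum with SA@BATMAN5, against 69.7, 67.0 and 64.6% in controls. Among 25 Polycomb partners 9 rose, 5 fell and 11 did not pass, so 56.0% were called, beside 58.2% of all tested genes. Eed, which binds the Polycomb mark, rose by 0.47 ± 0.05 log2 units, and Rybp, a subunit of the ubiquitin ligase branch, fell by 0.65 ± 0.07 log2 units.

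Other methyltransferases were followed too, and Dot1l was the only one of them that changed by at least 2-fold. Of 20 lysine methyltransferases outside those families 7 rose, 5 fell and 8 did not pass. Thus 60.0% were called, beside 58.2% of all tested genes. Dot1l, which methylates the core of histone H3, stood at 66.8, 67.1 and 62.4 CPM in SA@BATMAN5 libraries, against 143, 140.4 and 130.3 CPM in control libraries (log2 fold change -1.08 ± 0.05, adjusted p = 6.69e-11). Kmt5a, which methylates histone H4, stood at 126, 129.8 and 126 CPM in SA@BATMAN5 libraries, against 76.5, 80.3 and 84.4 CPM in control libraries (log2 fold change 0.66 ± 0.04, adjusted p = 5.59e-09). In neither gene did the groups overlap. Of 8 arginine methyltransferases 4 rose and 2 fell. The smallest p-values were those of Prmt1 (log2 fold change 0.28 ± 0.05) and Prmt9 (log2 fold change 0.27 ± 0.07), while the falls of Prmt3 (log2 fold change -0.32 ± 0.08) and Prmt2 (log2 fold change -0.29 ± 0.09), named after their values were seen, were of similar size.

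Of 17 lysine demethylase genes 7 rose, 4 fell and 6 did not pass. With upper-quartile scaling 5 were higher and 4 lower. The largest rise was that of Kdm5b, which removes the methyl mark of active promoters, at 37.96, 35.9 and 34.8 CPM in SA@BATMAN5 libraries, against 24.6, 27.6 and 23.8 CPM in control libraries (log2 fold change 0.52 ± 0.07, adjusted p = 1.07e-05). Kdm2a, a demethylase that binds unmethylated CpG islands, stood at 109, 107 and 109 CPM in SA@BATMAN5 libraries, against 80.00, 74.2 and 76.7 CPM in control libraries (log2 fold change 0.49 ± 0.04, adjusted p = 7.86e-08). Kdm2b, its paralog and a subunit of a Polycomb complex, had the largest fall, at 13.1, 12.4 and 14.99 CPM in SA@BATMAN5 libraries, against 21.2, 22.7 and 20.4 CPM in control libraries (log2 fold change -0.67 ± 0.08, adjusted p = 9.9e-06). Groups did not overlap in any of these genes, and the paralogs Kdm2a and Kdm2b differed in direction. In the GENCODE annotation of GRCm38, exons of Kdm2b overlap by up to 627 bases those of Rnf34 on the opposite strand, and Rnf34 had a log2 fold change of 0.74 (adjusted p = 2.17e-07). The strand setting of the counts is not given in the sources used here, so reads of such pairs cannot be told apart. Exons of Kdm1b overlap those of Dek in the same way, Kmt2e those of Srpk2 and Kat5 those of Rnaseh2c, and none of these 3 chromatin genes passed.

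Kdm6b, which removes the Polycomb mark, fell. It stood at 26.5, 26.1 and 25.4 CPM in SA@BATMAN5 libraries, against 38.3, 34.9 and 32.9 CPM in control libraries (log2 fold change -0.45 ± 0.06, adjusted p = 3.39e-05). The SA@BATMAN5 libraries were close to each other and all lay below the controls. Its paralog Kdm6a was at 25.8, 26.5 and 24.7 CPM with SA@BATMAN5 and 26.7, 23.9 and 26.2 CPM in controls and did not pass (adjusted p = 0.999). Among the Kdm4 genes, whose products act on marks of silent and transcribed chromatin, Kdm4a stood at 83.3, 86.2 and 86.8 CPM in SA@BATMAN5 libraries, against 64.99, 62.9 and 60.8 CPM in control libraries (log2 fold change 0.44 ± 0.04, adjusted p = 4.35e-07), Kdm4c fell by 0.34 ± 0.06 log2 units, and Kdm4b did not pass (adjusted p = 0.928). Kdm1a (Lsd1), a flavin-dependent demethylase found in corepressor complexes, stood at 48.3, 46.3 and 44.4 CPM in SA@BATMAN5 libraries, against 39.4, 40.03 and 37.5 CPM in control libraries (log2 fold change 0.25 ± 0.05, adjusted p = 0.000878). Kdm7a rose by 0.40 ± 0.04 log2 units and Kdm3b by 0.19 ± 0.04 log2 units, of which Kdm3b was not called with upper-quartile scaling (adjusted p = 0.0504) or on FPKM (0.134).

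The remaining Kdm5 genes differed from Kdm5b. Kdm5d, on the Y chromosome, fell by 0.43 ± 0.08 log2 units (adjusted p = 0.000284), while its X-linked counterpart Kdm5c was at 67.4, 62.5 and 61.3 CPM with SA@BATMAN5 and 63.2, 64.2 and 65.3 CPM in controls and did not pass (adjusted p = 0.859). Kdm5c and Kdm5d are close in sequence, and their counts are uncertain for that reason. Kdm5a was called higher (log2 fold change 0.14 ± 0.05, adjusted p = 0.0365) with overlapping groups. It was no longer called after dropping SA@BATMAN5 replicate 2 or 3 (adjusted p = 0.0684 and 0.174) or control replicate 2 or 3 (0.138 and 0.162), nor with library totals only (0.280), upper-quartile scaling (0.338) or FPKM (0.753). Kdm1b, Kdm3a and Kdm8 did not pass, with log2 fold changes of 0.07, -0.04 and 0.20. Among 9 other proteins with a JmjC domain, the fold shared by most demethylases, 3 rose, 1 fell and 5 did not pass. Thus 44.4% were called, beside 58.2% of all tested genes. The member that fell was Jmjd1c, at 54.00, 52.6 and 52.6 CPM in SA@BATMAN5 libraries, against 119, 101 and 109 CPM in control libraries (log2 fold change -1.05 ± 0.05, adjusted p = 7.03e-10), and Riox2 rose by 0.43 ± 0.06 log2 units.

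Acetyltransferase genes of the Kat family changed little. Of 8 Kat genes 2 rose, 1 fell and 5 did not pass. Upper-quartile scaling gave 2 higher and 2 lower. The median of their log2 fold changes was 0.06. Kat2b (PCAF) stood at 42.9, 39.1 and 42.9 CPM in SA@BATMAN5 libraries, against 30.3, 31.8 and 33.1 CPM in control libraries (log2 fold change 0.39 ± 0.06, adjusted p = 4.03e-05), whereas its paralog Kat2a was at 37.2, 36.4 and 36.4 CPM with SA@BATMAN5 and 36.8, 35.2 and 31.8 CPM in controls (adjusted p = 0.245). Kat14, a subunit of the ATAC acetyltransferase complex, stood at 38.3, 34.7 and 37.2 CPM in SA@BATMAN5 libraries, against 49.1, 45.8 and 49.7 CPM in control libraries (log2 fold change -0.39 ± 0.05, adjusted p = 2.67e-05). Kat2b and Kat14 each had groups that did not overlap, and Kat2a had groups that did. Kat6a rose by 0.18 ± 0.04 log2 units and was not called on FPKM (adjusted p = 0.174). Kat7 was at 67.1, 62.8 and 65.3 CPM with SA@BATMAN5 and 71.2, 67.7 and 68.7 CPM in controls and did not pass (adjusted p = 0.0933), and it was called lower with library totals only (0.00378), with upper-quartile scaling (0.00303) and on FPKM (0.00883). Kat5, Kat6b and Kat8 had overlapping groups and log2 fold changes between -0.04 and 0.09. Of 17 other acetyltransferases and their partners 9 rose, 5 fell and 3 did not pass. Thus 82.4% were called, beside 58.2% of all tested genes. The smallest p-values were those of Hat1, which acetylates new histones before they are deposited (log2 fold change 0.66 ± 0.05), and Ep300, a general coactivator (log2 fold change 0.33 ± 0.04).

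**Figure D3:**
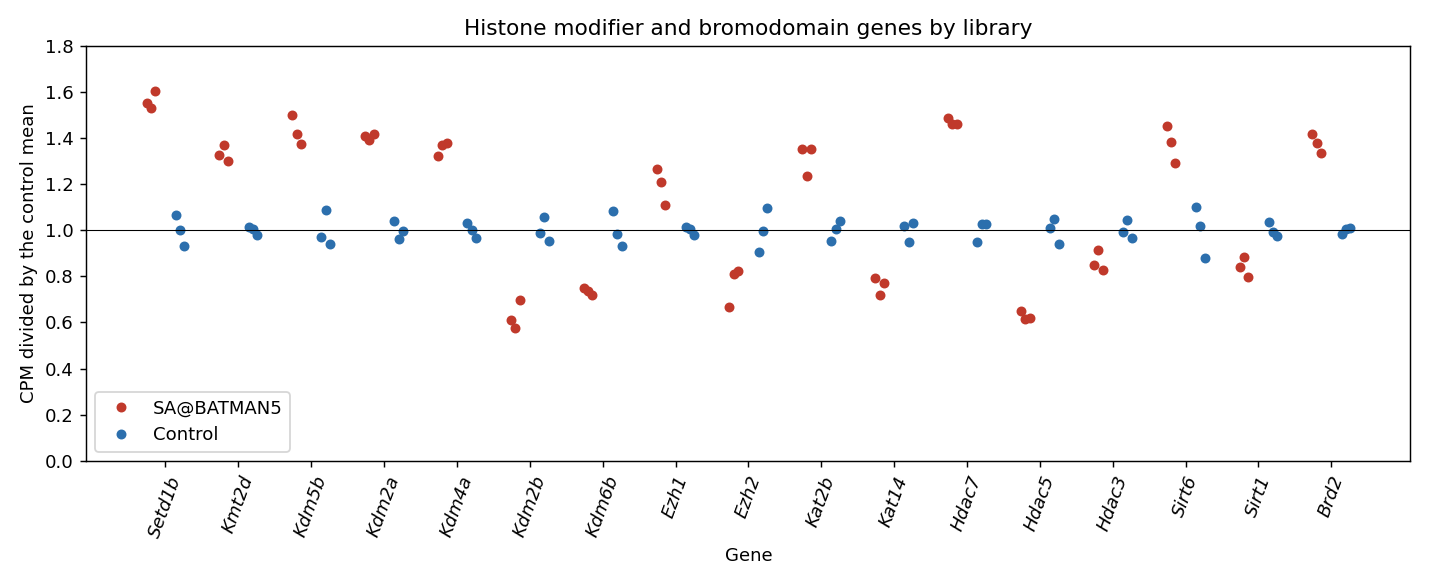
CPM of 17 histone modifier and bromodomain genes divided by the control mean of each gene, with 1 point per library (SA@BATMAN5 red, left; control blue, right). The red and blue points do not overlap in any of these genes. All of them were called, and genes that did not pass are not drawn, so the separation follows from the choice. Among all tested genes the groups did not overlap for 64.1%.

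Of 11 classical deacetylase genes 2 rose, 3 fell and 6 did not pass. Upper-quartile scaling gave 2 higher and 4 lower. Hdac5, of the class that shuttles between nucleus and cytoplasm, had the largest fall, at 57.6, 54.5 and 54.9 CPM in SA@BATMAN5 libraries, against 89.9, 93.3 and 83.6 CPM in control libraries (log2 fold change -0.67 ± 0.05, adjusted p = 2.11e-08). Hdac7, of the same class, had the largest rise, at 18.4, 18.04 and 18.1 CPM in SA@BATMAN5 libraries, against 11.7, 12.7 and 12.7 CPM in control libraries (log2 fold change 0.56 ± 0.08, adjusted p = 2e-05). In both genes the groups did not overlap. Exons of Hdac7 overlap by up to 29 bases those of Slc48a1 on the opposite strand, a gene with far more counts and a log2 fold change of 0.57 (adjusted p = 9.17e-10), and the part of this overlap in the Hdac7 value was not tested. Hdac4 fell by 0.28 ± 0.07 log2 units, while Hdac9, the other member of that class, was at 4.39, 1.96 and 3.40 CPM with SA@BATMAN5 and 3.82, 2.76 and 3.10 CPM in controls with overlapping groups and did not pass (log2 fold change 0.02 ± 0.25, adjusted p = 0.953). Among the nuclear deacetylases of corepressor complexes, Hdac1 rose by 0.40 ± 0.05 log2 units (adjusted p = 1.35e-05). Hdac3, the catalytic subunit of the NCoR and SMRT complexes, fell, at 36.2, 38.98 and 35.2 CPM in SA@BATMAN5 libraries, against 42.2, 44.4 and 41.1 CPM in control libraries (log2 fold change -0.21 ± 0.06, adjusted p = 0.00479). Hdac2 was at 43.7, 49.5 and 43.5 CPM with SA@BATMAN5 and 41.3, 38.7 and 43.7 CPM in controls and did not pass (adjusted p = 0.0701), with a call without control replicate 3 (0.0416). Hdac6, a tubulin deacetylase, did not pass either (adjusted p = 0.0985), and was called lower without SA@BATMAN5 replicate 1 (0.0187), with library totals only (0.0226), with upper-quartile scaling (0.0192) and on FPKM (0.0433). Hdac8, Hdac10 and Hdac11 had overlapping groups and log2 fold changes of 0.06, -0.11 and 0.07. The complexes around these enzymes were split, with 7 of 23 tested corepressor genes higher, 7 lower and 9 not past the threshold. Thus 60.9% were called, beside 58.2% of all tested genes. Sap30 and Sin3a, of the Sin3 complex, rose by 0.99 ± 0.05 log2 units and by 0.53 ± 0.06 log2 units.

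Sirtuins, deacetylases that consume NAD, fell more often than they rose, with 1 higher, 4 lower and 2 not past the threshold. These counts were the same with library totals only and with upper-quartile scaling. The family is small, and 29.5% of all tested genes were called higher and 28.7% lower. Sirt6, a nuclear sirtuin at chromatin, was the gene that rose, at 16.9, 16.1 and 15.05 CPM in SA@BATMAN5 libraries, against 12.8, 11.9 and 10.2 CPM in control libraries (log2 fold change 0.46 ± 0.10, adjusted p = 0.000898). Sirt1, a nuclear deacetylase of histones and of NF-kappaB, stood at 19.5, 20.6 and 18.5 CPM in SA@BATMAN5 libraries, against 24.01, 23.00 and 22.6 CPM in control libraries (log2 fold change -0.25 ± 0.07, adjusted p = 0.00523). Sirt2, a mainly cytoplasmic enzyme with the highest FPKM of all 74 genes in controls, stood at 76.96, 78.6 and 77.4 CPM in SA@BATMAN5 libraries, against 96.3, 96.4 and 89.98 CPM in control libraries (log2 fold change -0.28 ± 0.04, adjusted p = 3.59e-05). Each of these genes had groups that did not overlap. Sirt7, found in nucleoli, fell by 0.22 ± 0.05 log2 units. Sirt5, a mitochondrial sirtuin, was called lower at 2.61, 2.07 and 2.37 CPM with SA@BATMAN5 and 3.31, 3.36 and 3.24 CPM in controls (log2 fold change -0.49 ± 0.18, adjusted p = 0.0287), and lost the call in each fit that dropped a library other than SA@BATMAN5 replicate 1 (adjusted p 0.0559 to 0.0828 over those 5 fits). Sirt3, the main mitochondrial deacetylase, was at 4.47, 6.44 and 7.45 CPM with SA@BATMAN5 and 4.67, 4.84 and 5.47 CPM in controls and did not pass (log2 fold change 0.29 ± 0.17, adjusted p = 0.162), but passed without SA@BATMAN5 replicate 1 (0.0147). Exons of Sirt3 overlap those of Psmd13 and Ric8a on the opposite strand, and both of those genes have many more counts. Sirt4, also mitochondrial, did not pass (log2 fold change -0.12 ± 0.14, adjusted p = 0.487). Summed over the family, sirtuin transcripts were at 78.0 ± 1.94 FPKM with SA@BATMAN5 and 93.2 ± 3.47 FPKM in controls.

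Most of the Brd genes rose, with small changes. Of 8 genes whose symbol begins with Brd 6 rose, 1 fell and 1 did not pass, and these counts were the same with library totals only and with upper-quartile scaling. This family is small too, and 29.5% of all tested genes were called higher and 28.7% lower. Brd2, a BET protein that binds acetylated histones, ranked 1 by FPKM among the 74 genes with SA@BATMAN5 and 4 in controls, and stood at 254, 246 and 239 CPM in SA@BATMAN5 libraries, against 176, 180.2 and 181 CPM in control libraries (log2 fold change 0.46 ± 0.03, adjusted p = 3.55e-08). Brd3, also a BET protein, stood at 38.02, 38.98 and 35.7 CPM in SA@BATMAN5 libraries, against 28.9, 31.8 and 30.5 CPM in control libraries (log2 fold change 0.30 ± 0.06, adjusted p = 0.000401), and was not called on FPKM (adjusted p = 0.0860). In Brd2 and Brd3 all SA@BATMAN5 libraries were above all controls. Brd7 and Brd9, subunits of SWI/SNF remodelling complexes, rose by 0.24 ± 0.05 log2 units and by 0.35 ± 0.09 log2 units, and Brd1, a scaffold of acetyltransferase complexes, by 0.27 ± 0.05 log2 units. Brd8, of the Tip60 acetyltransferase complex, did not pass (adjusted p = 0.708).

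Brd3os, a transcript named as opposite strand to Brd3, was called lower at 1.97, 1.41 and 1.24 CPM with SA@BATMAN5 and 3.33, 2.63 and 1.96 CPM in controls (log2 fold change -0.77 ± 0.26, adjusted p = 0.0195). The groups overlapped, and dropping SA@BATMAN5 replicate 2 or 3 (adjusted p = 0.0576 and 0.0779) or control replicate 1 or 2 (0.110 and 0.0502) ended the call. In the GENCODE annotation of GRCm38 no exon overlap of Brd3os with Brd3 was found. The authors' annotation and strand setting are not given, and whether these genes share reads was not tested. Larger changes were found among bromodomain genes with other names. Of 24 tested, 12 rose, 4 fell and 8 did not pass, so 66.7% were called, beside 58.2% of all tested genes. The 25 genes summed to 1568 to 1621 CPM with SA@BATMAN5 and 1197 to 1236 CPM in controls. Sp100 and Sp110, interferon-inducible nuclear body proteins, rose by 2.15 ± 0.04 log2 units and by 1.90 ± 0.05 log2 units. Sp100 stood at 205, 192 and 197 CPM in SA@BATMAN5 libraries, against 44.7, 42.6 and 46.8 CPM in control libraries, and since it belongs to a repeated gene cluster in mouse its count is uncertain. Over all companion lists together, 58 of 152 tested genes rose, 38 fell and 56 did not pass, so 63.2% were called, beside 58.2% of all tested genes. The balance turned over with the scaling, to 42 higher and 52 lower with library totals only and 40 higher and 54 lower with upper-quartile scaling. The median of their log2 fold changes was 0.05 under TMM.

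**Figure D4:**
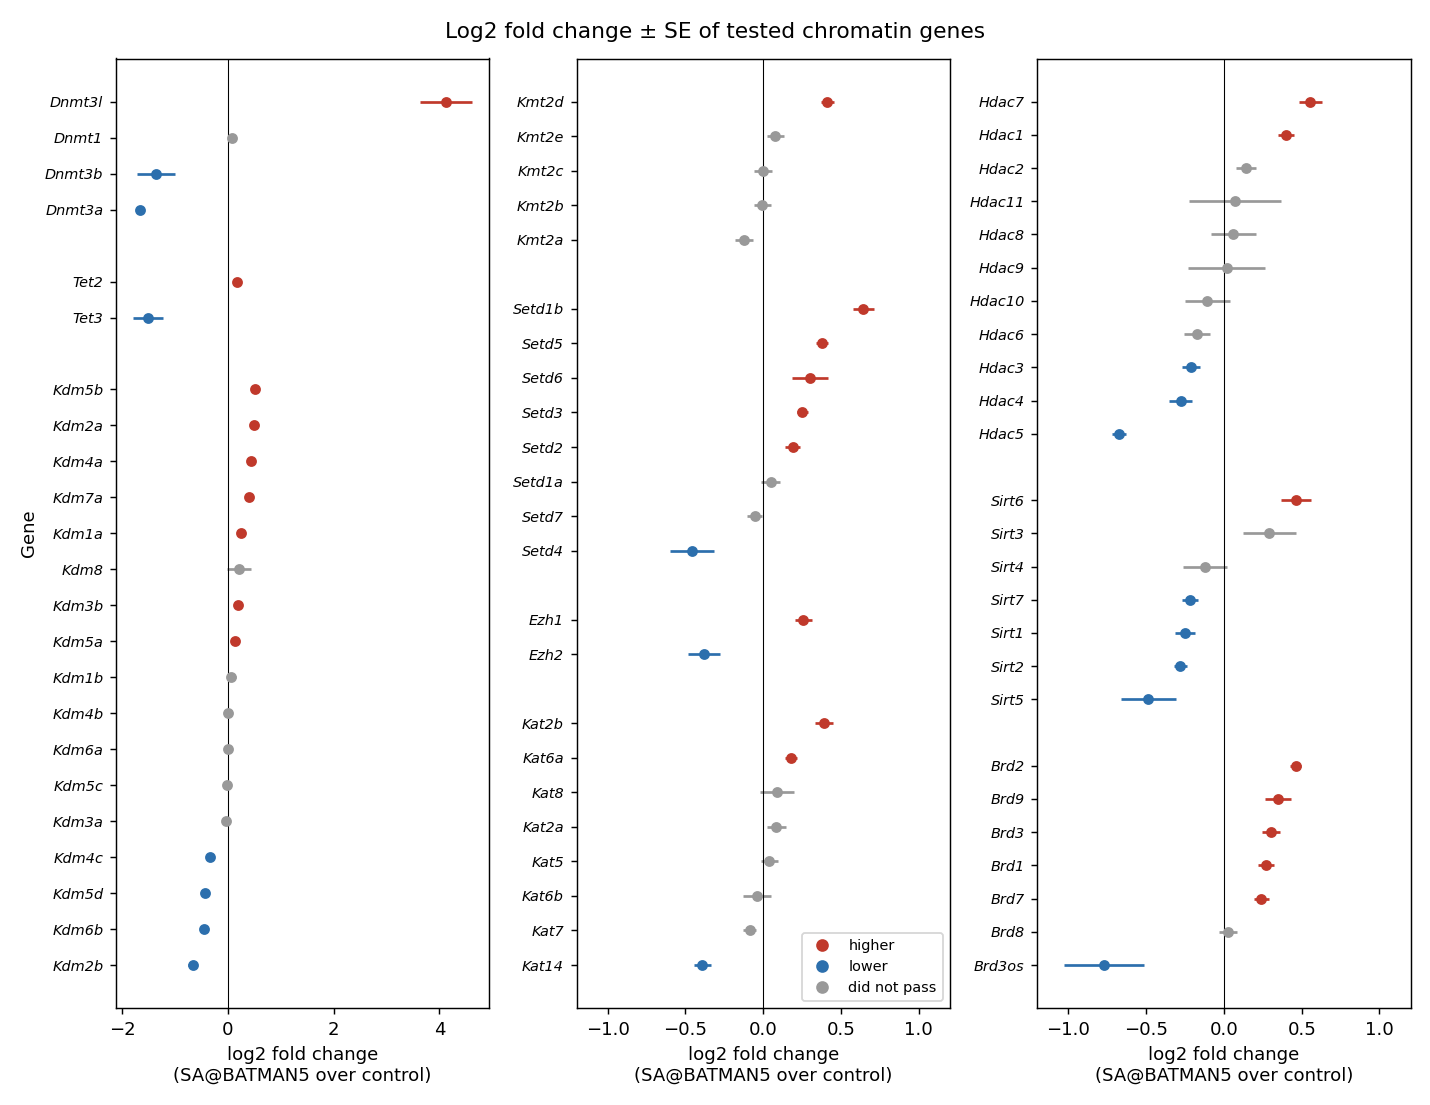
Log2 fold change (SA@BATMAN5 over control, horizontal axis) ± SE of 71 of the 72 tested genes, ordered by size within each family, with genes called higher in red, called lower in blue and those that did not pass in grey; the left panel has a wider axis than the others. Dnmt3l at 4.13 and Dnmt3a, Tet3 and Dnmt3b between -1.67 and -1.36 are the changes of at least 2-fold, and the remaining genes lie between -0.77 and 0.64.

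By summed FPKM, which weights each family by its abundant genes, the Dnmt and Tet families were far below control and the other families lay closer to it. The Dnmt sum with SA@BATMAN5 was 0.496 of control and the Tet sum 0.543. Sirt was at 0.837, Hdac at 0.939, Kat at 0.954 and Ezh at 0.979. Kmt2 was at 1.00, Kdm at 1.06, Setd at 1.09 and Brd at 1.17. In FPKM the libraries of the 2 groups did not overlap for Dnmt, Tet, Kdm, Setd, Sirt, Brd, Hdac and Kat, and they overlapped for Kmt2 and Ezh. For most genes FPKM per CPM was lower with SA@BATMAN5 than in controls. It was 0.392 to 0.403 against 0.416 to 0.419 for Hdac1, and 0.264 to 0.270 against 0.280 to 0.283 for Kat2a. The TMM factors that enter CPM were 0.973 to 0.977 with SA@BATMAN5 and 1.018 to 1.03 in controls. The part of these factors in the difference was not tested. The direction of sums near the control level, such as those of Hdac and Kat, is therefore not settled.

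**Figure D5:**
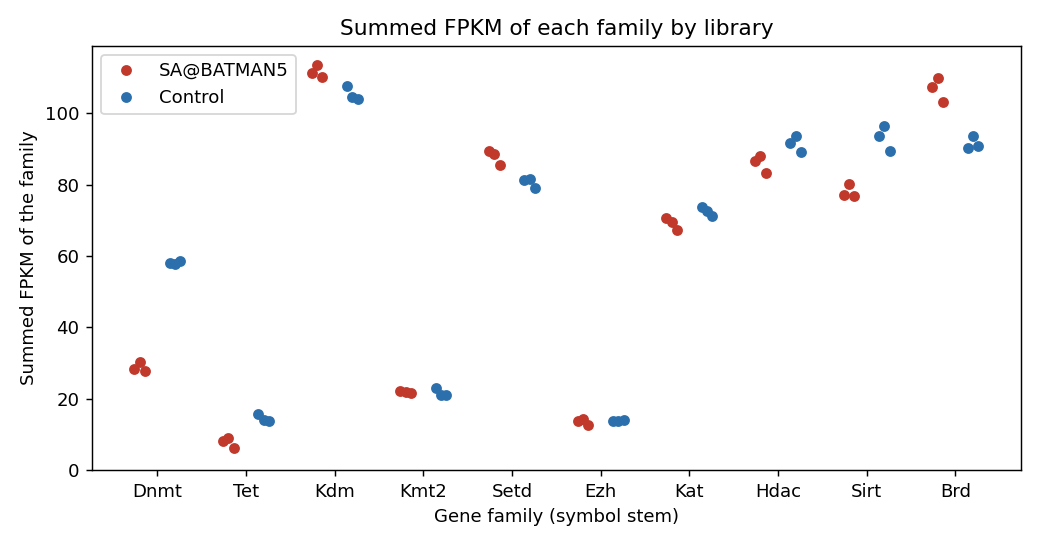
Summed FPKM (vertical axis, from 0) of the genes of each family, with 1 point per library (SA@BATMAN5 red, left; control blue, right). The Dnmt points lie between 27.8 and 30.2 with SA@BATMAN5 and between 57.7 and 58.6 in controls, while the Kmt2 and Ezh points of the groups overlap.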

How the data were processed

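Total RNA libraries of 6 macrophage samples were sequenced, 3 per group. The authors deposited 1 table with whole-number counts per gene, FPKM values and their own comparison (log2 fold change, p-value). Per the submitters' processing notes they used HISAT2 2.2.0, StringTie 2.1.2, DESeq2 1.26.0 and GRCm39. No source used here names the counting tool, the annotation or the strand setting. Columns named N were read as controls and those named S-5 as SA@BATMAN5, from their names alone.

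The deposited counts were tested with edgeR 4.0.16 (R 4.3.3): filterByExpr with a minimum of 10 counts and a total of 15, TMM scaling, a quasi-likelihood fit on group, and Benjamini-Hochberg adjustment over all 13474 genes tested, with calls at 0.05. The pairing of equal replicate numbers, which the design does not state, was checked and is given with the processing alternatives. Every pair of replicates was further apart than sampling noise allows (ratio of chi-square to its degrees of freedom, 4.66 to 8.10).

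Alternatives were DESeq2 1.42.0, limma 3.58.1 (voom), other scalings, no filter, a replicate block and leaving out each library. After seeing the data, limma on log2(FPKM + 1) and thinning to the shallowest library were added. The authors' FPKM were used for levels between genes and for that fit, in which a fold change is on the log2(FPKM + 1) scale and understates low genes. Members and lists were chosen with earlier results of these data known. Values per library are given for the largest rise and fall called in each family, the 8 largest rises and 8 largest falls over all families, and genes of note in macrophages; further paralogs, Uhrf1, Prmt2 and Prmt3 were added after their values were seen. From each companion list the 2 genes with the smallest p-values are named, and a few genes that these rules pick are not reported here.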

Additional observations from a re-analysis of the deposited data

How the results depend on the processing

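Of the 45 chromatin genes called, 34 were called in the same direction under every alternative run, and of the 27 that did not pass, 20 stayed so. Dnmt3l is counted among the 34, although it passed the filter through the SA@BATMAN5 group alone and its call carries no weight. No log2 fold change of a called gene changed sign. The counts of chromatin genes higher and lower were 22 and 22 with upper-quartile scaling, 24 and 22 with library totals only, 20 and 20 with limma on log2(FPKM + 1), and 26 and 18 with the replicate block, against 27 and 18. Leaving out each library gave 25 to 27 higher and 16 to 19 lower. Over all tested genes 3980 were higher and 3866 lower. Library totals only gave 3291 higher and 4694 lower, and upper-quartile scaling 3239 higher and 4791 lower. Of the companion genes 33 were higher and 47 lower on FPKM, 40 and 54 with upper-quartile scaling and 42 and 52 with library totals only, against 58 and 38 under TMM. The cause was not tested. Equal replicate numbers did not pair the libraries (correlations of their deviations 0.0124, -0.00284 and 0.00507), and the block changed the call of Setd6 alone. Without each library Dnmt3l ranged from 3.94 to 4.59 and Dnmt3b from -1.69 to -1.16 on the log2 scale. Low genes (Dnmt3l, Dnmt3b, Brd3os, Sirt5, Setd4) rest on few counts, and at 3 libraries per group differences in the genes that did not pass cannot be told from none.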
